A study of Mus musculus with 16 samples.

Results

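The proteasome genes described here are the protein-coding genes whose symbols begin with Psma, Psmb, Psmc, Psmd, Psme, Psmf or Psmg and a number, without the interferon-induced forms Psmb8, Psmb9, Psmb10, Psme1 and Psme2. The rule chose 45 of the 54532 genes in the table. Of these, 43 had at least 1 FPKM (reads per kilobase of a gene, which the authors scaled between libraries) in at least 4 of 16 libraries and were tested. They include 2 genes matched by name that are not counted here as constitutive proteasome genes. These are Psmc3ip, a meiotic recombination factor, and Psme2b, a gene named for its likeness to the interferon-induced Psme2. Thus 41 constitutive proteasome genes were tested. The 2 genes not tested are forms of other tissues, Psma8 of the testis and Psmb11 of the thymus, and their highest values in any library were 0.42 and 0.05 FPKM.

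The proteasome is the barrel-shaped protease that degrades proteins marked with ubiquitin. Its core particle (20S) is built of alpha rings that gate the entry and beta rings that hold the active sites in Psmb5, Psmb6 and Psmb7. The regulatory particle (19S) sits on the core, where a base ring of ATPases, Psmc1 to Psmc6, unfolds the substrate, receptor subunits such as Psmd4 bind ubiquitin, and a lid with the deubiquitinase Psmd14 removes it. Dedicated chaperones assemble both particles, and interferon gamma replaces the catalytic subunits by Psmb8, Psmb9 and Psmb10. When proteasome activity is limited, the transcription factor Nrf1 (gene Nfe2l1) raises many subunit genes together through antioxidant response elements.

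RNA was sequenced from 16 end-stage tumours grown under the skin of C57BL/6J mice of both sexes, 8 weeks old at implantation. BdP tumours grew from B16F10 melanoma cells with low Pros1, which the sample titles call deficient and another label a knockdown, and WT tumours from wild-type B16F10 cells. Mice received cisplatin (5 mg/kg), a platinum compound that damages DNA by crosslinks, or PBS by intraperitoneal injection, in 2 rounds of 3 daily doses that started 8 days after implantation. The 4 groups of 4 libraries were BdP with cisplatin, BdP with PBS, WT with cisplatin and WT with PBS. The labels do not say how Pros1 was lowered, whether BdP is 1 clone, or whether replicates came from separate experiments, so p-values measure the spread between these libraries only, which may be technical.

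Reads assigned to genes ranged from 10051843 to 27055771 per library. Mitochondrial genes took 76.9% of them in WT PBS 1, 12.2% in WT cisplatin 3, 21.7% in WT cisplatin 4 and 2.03% to 5.06% in the other libraries, and WT PBS 1 had 2239900 reads outside mitochondrial and haemoglobin genes. Pros1 had 1.73 to 2.52 FPKM in BdP cisplatin, 1.24 to 1.61 in BdP PBS, 7.78 to 11.5 in WT cisplatin and 4.79 to 9.77 in WT PBS, so each library matched its genotype label. All 8 melanocyte-lineage markers were detected, with summed levels of 4903 to 8928 FPKM. Leukocyte markers (12 of 12 detected) summed to 129 to 465 FPKM in BdP cisplatin, 118 to 841 in BdP PBS, 28.5 to 235 in WT cisplatin and 17.2 to 496 in WT PBS. These are bulk samples, in which fewer cells of a type and less RNA per cell cannot be told apart.

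The sequences shown are the 250 bases before the RefSeq start (GRCm38.p6) of the 3 genes with the largest falls in BdP tumours, Psmd4, Psma5 and Psmb4, and of the catalytic subunit Psmb5, whose level did not pass the test, for contrast. Capitals mark the motifs searched on both strands, the core of the antioxidant response element (TGACNNNGC) and the NF-Y box (CCAAT, or ATTGG on the other strand).
Psmd4 promoter, chr3:95042615-95042864, minus strand: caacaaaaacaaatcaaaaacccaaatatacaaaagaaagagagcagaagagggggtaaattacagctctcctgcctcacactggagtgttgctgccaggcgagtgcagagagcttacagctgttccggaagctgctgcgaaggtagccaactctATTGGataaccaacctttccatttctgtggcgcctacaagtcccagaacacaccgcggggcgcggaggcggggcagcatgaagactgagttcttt
Psma5 promoter, chr3:108256676-108256925, plus strand: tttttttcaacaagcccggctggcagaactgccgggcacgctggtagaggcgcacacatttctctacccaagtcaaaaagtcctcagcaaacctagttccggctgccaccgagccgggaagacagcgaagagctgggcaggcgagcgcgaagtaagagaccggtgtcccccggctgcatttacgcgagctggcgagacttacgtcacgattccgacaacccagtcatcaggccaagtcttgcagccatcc
Psmb4 promoter, chr3:94886959-94887208, minus strand: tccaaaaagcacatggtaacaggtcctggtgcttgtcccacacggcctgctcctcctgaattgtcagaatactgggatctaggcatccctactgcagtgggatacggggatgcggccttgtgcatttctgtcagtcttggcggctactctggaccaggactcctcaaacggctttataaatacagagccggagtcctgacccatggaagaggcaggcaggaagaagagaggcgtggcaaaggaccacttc
Psmb5 promoter, chr14:54617996-54618245, minus strand: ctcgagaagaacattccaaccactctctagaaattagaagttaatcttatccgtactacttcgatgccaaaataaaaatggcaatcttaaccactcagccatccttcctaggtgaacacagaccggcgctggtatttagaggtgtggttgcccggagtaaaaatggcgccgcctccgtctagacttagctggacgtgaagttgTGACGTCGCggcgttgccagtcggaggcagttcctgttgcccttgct
The Psmd4 window holds 1 NF-Y box, 95 bases before the start, the Psmb5 window holds 1 antioxidant response element core, 47 bases before the start, and the Psma5 and Psmb4 windows hold neither motif. RefSeq promoters were matched for 37 of the 45 genes, among them Psmb11, Psmc3ip and Psme2b. The subunit genes Psmb1, Psmb2, Psmb7, Psmc3, Psmd3 and Psmd7 were among those without a match. A gene with several starts was counted if any of its windows held the motif. The antioxidant response element core was present in 5 of these 37 (13.5%), against 11.5% of 27025 genes with a promoter in the table. Besides Psmb5, those with the core were Psmb6, 9 bases before the start, Psmd9, 31 bases, Psmc6, 227 bases, and Psmd12, 247 bases. The NF-Y box was present in 14 of 37 (37.8%), against 37.5% of all genes. These 14 include Psmb11 and Psmc3ip, and Psma6 and Psmc2, in which not every start had the box. The motif shares of these 37 genes were close to those of all genes.

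Every subunit of the core and regulatory particles was expressed in every library, at 12.5 FPKM (Psmd11 in BdP cisplatin 2) or more. FPKM divides reads by an annotated gene length that differed between members, such as 899 bases for Psmb5 and 3421 for Psmb7. Comparisons of FPKM between genes therefore depend on that length as well. In the alpha ring, mean levels over the 16 libraries ran between 29.4 FPKM for Psma2 and 151 FPKM for Psma6. The beta ring subunits without activity ran between 38.2 FPKM for Psmb1 and 117 FPKM for Psmb4. Of the catalytic subunits, Psmb5 (chymotrypsin-like activity) averaged 100.2 FPKM, Psmb6 (caspase-like) 79.8 FPKM and Psmb7 (trypsin-like) 30.4 FPKM. Genes whose proteins stand in equal numbers in the particle thus differed severalfold in FPKM, and the part of gene length in this was not tested.

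In the regulatory particle, the ATPases ran between 27.6 FPKM for Psmc2 and 104 FPKM for Psmc5, the other base subunits between 22.8 FPKM for Psmd1 and 82.8 FPKM for Psmd2, and the lid between 15.3 FPKM for Psmd11 and 126 FPKM for Psmd8. The assembly chaperones were lower. Those of the regulatory particle had 4.55 FPKM for Psmd9, 6.66 for Psmd5 and 15.8 for Psmd10 (gankyrin), and those of the core ran between 2.89 for Psmg3 and 37.7 for Psmg4. Of the alternative caps, the nuclear activator Psme3 (PA28 gamma) averaged 62.2 FPKM and Psme4 (PA200) 12.1 FPKM, and Psmf1, which encodes the inhibitor PI31, averaged 6.20 FPKM.

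Replicates of the 41 constitutive genes stayed close together, with pooled within-group SDs on the log2(FPKM + 1) scale of 0.10 for Psmd11 to 0.31 for Psmd6 and a median of 0.19. Over all 16 libraries the highest value of a gene was between 1.39 times (Psmd2) and 3.20 times (Psmd6) its lowest. The same ratio for the interferon-induced genes that the rule leaves out was 3.73 for Psme1, 5.21 for Psme2, 5.54 for Psmb10, 112 for Psmb9 and 155 for Psmb8, with within-group SDs of 0.53 to 1.44. Psme2b, which the rule keeps, varied 6.30-fold. It overlaps the genes 9930111J21Rik1 and Gm12185 on its own strand, so its reads may be shared with them. In all, 20 of the tested genes overlap another annotated gene. Of the 5 genes called below, Psma5 alone does, with the antisense gene 1700010K24Rik, which had at most 0.693 FPKM. Whether counting used strand is not given in the sources used here. The 4 annotated pseudogenes of Psmb5, Psmb6 and Psmb7 reached at most 0.642 FPKM.

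In some libraries most members lay on the same side of their own medians. The same count over all genes was not made. The number of the 41 constitutive genes above their own median over the 16 libraries was 11, 7, 26 and 7 in BdP cisplatin 1 to 4, 4, 20, 20 and 0 in BdP PBS 1 to 4, 37, 28, 25 and 23 in WT cisplatin 1 to 4, and 35, 31, 18 and 36 in WT PBS 1 to 4. BdP PBS 4 thus had every one of them at or below its median, and WT cisplatin 1 had all but a few above. In WT PBS 1 the log2(FPKM + 1) deviations from these medians went both ways, from -0.51 for Psme4 to 1.24 for Psmd6. Their summed level was 1910 ± 116 FPKM in BdP cisplatin, 1833 ± 235 in BdP PBS, 2136 ± 128 in WT cisplatin and 2270 ± 206 in WT PBS (SD, n = 4 each). All 45 genes of the rule, Psmc3ip and Psme2b included, were also taken as a share of reads outside mitochondrial and haemoglobin genes. They took 0.51% to 0.62% in the 8 BdP libraries and 0.54% to 0.77% in the 8 WT libraries, so the genotypes overlapped.

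**Figure D1:**
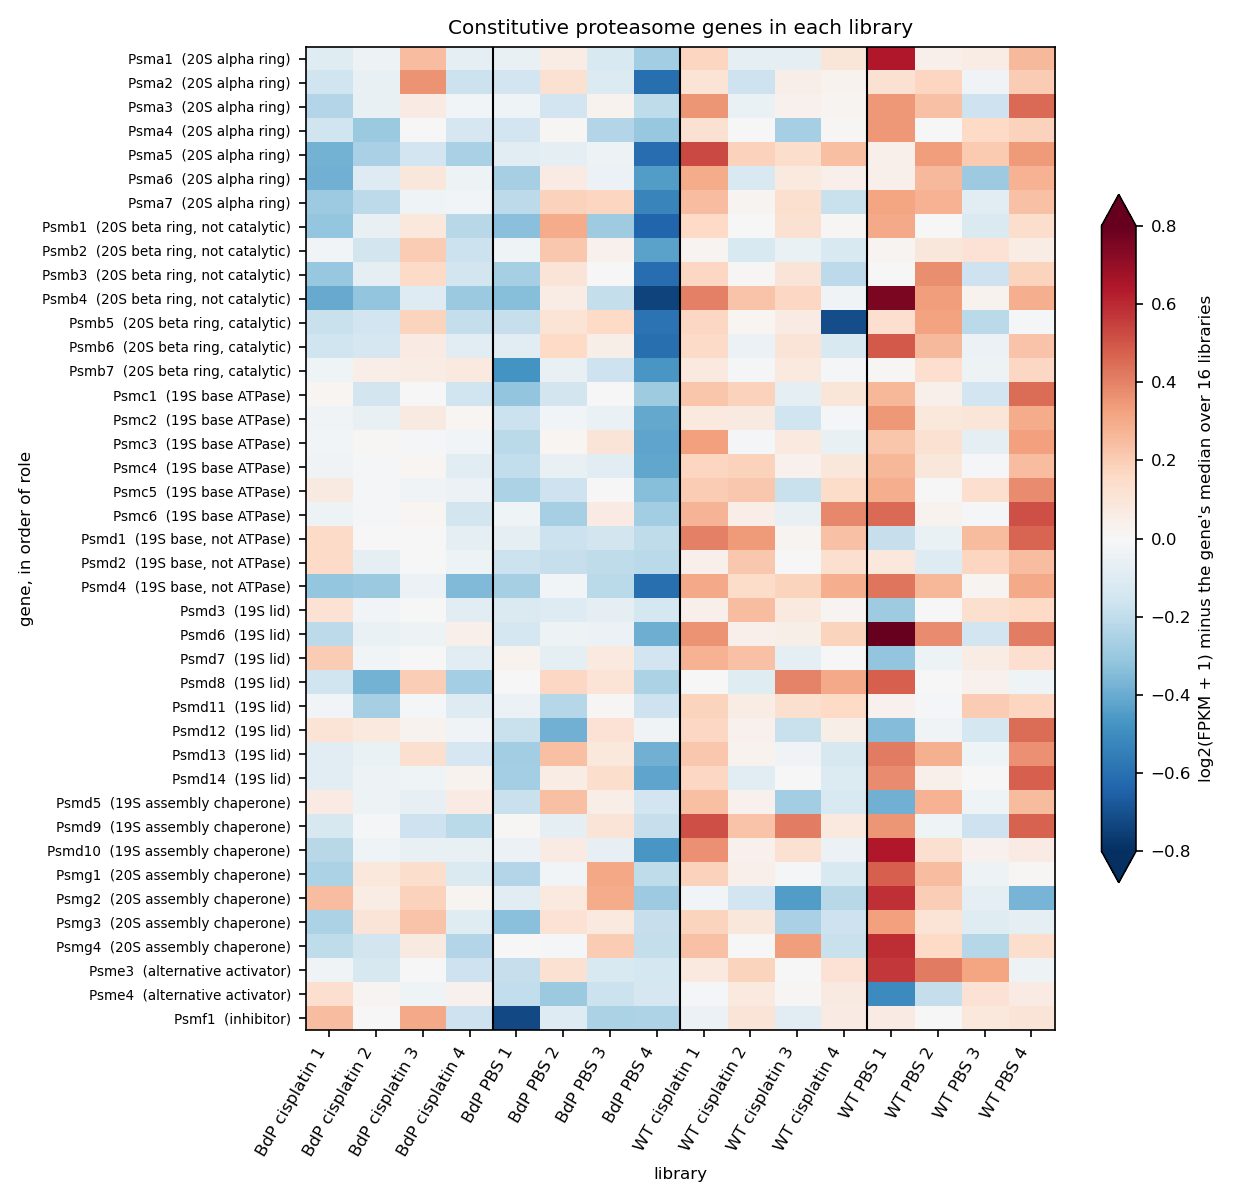
Each of the 41 constitutive proteasome genes (rows, in order of role) in each of the 16 libraries (columns, by group), as log2(FPKM + 1) minus the gene's median over all libraries; red is above and blue below. BdP PBS 4 is blue in almost every row and WT PBS 4 and WT cisplatin 1 are mostly red, while WT PBS 1, the library with 76.9% mitochondrial reads, has the most uneven column.

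Proteasome transcripts were mostly lower in BdP tumours than in WT tumours, by a small amount. The labels name Pros1 loss and cisplatin as the factors compared, and the first comparison is that of genotype. With both treatments pooled, 40 of 43 tested genes were lower in BdP and the median change was -0.20 on the log2(FPKM + 1) scale, against 0.006 over all 12319 genes tested, of which 48.9% were lower. Each gene was tested with limma on that scale over all 16 libraries and called at a Benjamini-Hochberg adjusted p under 0.05 over all genes. In the pooled comparison 5 of 43 genes were called lower, where 3.09% of all genes were called lower, and 0 were called higher, where 2.77% of all genes were. At an unadjusted p under 0.05 there were 20 of 43, against 25.8% of all genes. Voom from limma on recovered reads called 5 lower and 0 higher, where it called 464 of all genes lower and 390 higher. The genes called were Psmd4, Psma5, Psmb4, Psmd11 and Psmc4.

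Psmd4 encodes the ubiquitin receptor Rpn10 of the regulatory particle (ENSMUSG00000005625, chr3:95032694-95042614, minus strand). It had 41.6, 41.8, 50.0 and 40.3 FPKM in BdP cisplatin and 42.9, 50.9, 44.4 and 33.8 FPKM in BdP PBS. It had 64.0, 57.4, 58.8 and 63.6 FPKM in WT cisplatin and 70.02, 62.5, 52.6 and 64.1 FPKM in WT PBS. All 8 BdP libraries lay below all 8 WT libraries. The pooled log2 fold change was -0.51 ± 0.09 (SE), with an adjusted p of 0.00426 in limma.

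Psma5 encodes an alpha ring subunit of the core (ENSMUSG00000068749, chr3:108256926-108279974, plus strand). It had 50.1, 54.3, 58.5 and 54.4 FPKM in BdP cisplatin and 61.6, 61.9, 63.6 and 42.4 FPKM in BdP PBS. It had 94.5, 74.4, 72.2 and 77.2 FPKM in WT cisplatin and 67.1, 82.6, 75.5 and 82.9 FPKM in WT PBS. Again no BdP library reached the lowest WT library. The pooled log2 fold change was -0.48 ± 0.09 (SE), with an adjusted p of 0.00835 in limma. Psmd4 and Psma5 were the only members of the 43 whose genotypes did not overlap over both treatments, a pattern of lower BdP values that 1.01% of all genes tested showed.

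Psmb4 encodes a beta ring subunit without catalytic activity (ENSMUSG00000005779, chr3:94884093-94886961, minus strand). It had 86.2, 91.4, 106 and 92.8 FPKM in BdP cisplatin and 90.0, 119, 100.1 and 68.0 FPKM in BdP PBS. It had 151, 134, 128 and 112 FPKM in WT cisplatin and 193, 144, 117 and 140 FPKM in WT PBS. The genotypes overlapped through BdP PBS 2, at 119 FPKM, which lay above WT cisplatin 4 and WT PBS 3. The pooled log2 fold change was -0.56 ± 0.12 (SE), with an adjusted p of 0.0164 in limma.

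Psmd11 encodes the lid subunit Rpn6 (ENSMUSG00000017428, chr11:80428615-80473248, plus strand). It had 15.0, 12.5, 15.1 and 14.1 FPKM in BdP cisplatin and 14.6, 12.8, 15.3 and 13.4 FPKM in BdP PBS. It had 17.3, 15.9, 16.7 and 17.0 FPKM in WT cisplatin and 15.6, 15.1, 17.6 and 17.2 FPKM in WT PBS. The genotypes did not overlap under cisplatin and met under PBS, where BdP PBS 3 lay above WT PBS 2. Its pooled log2 fold change was -0.22 ± 0.06 (SE), with an adjusted p of 0.0475 in limma.

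Psmc4 encodes the ATPase Rpt3 (ENSMUSG00000030603, chr7:28041707-28050101, minus strand). It had 66.0, 66.6, 67.8 and 63.2 FPKM in BdP cisplatin and 58.5, 64.4, 63.1 and 50.2 FPKM in BdP PBS. It had 75.8, 76.5, 68.9 and 71.7 FPKM in WT cisplatin and 81.0, 71.5, 66.5 and 79.9 FPKM in WT PBS. The genotypes did not overlap within a treatment, and WT PBS 3 lay below 2 of the BdP cisplatin libraries. Its pooled log2 fold change was -0.24 ± 0.07 (SE), with an adjusted p of 0.0475 in limma. Psmd11 and Psmc4 stood at the threshold, and their calls ended in most fits without 1 library. Calls over all genes moved as well. Of all genes, 212 were called lower without WT cisplatin 1, 238 without BdP PBS 1 and 693 without WT PBS 3, against 381 with all 16 libraries. Psmd11 was not called without 12 of the 16 libraries, each left out alone, and was called only without WT PBS 1, 2 or 3 or BdP PBS 3. Psmc4 was not called without 13 of the 16, and was called only without WT PBS 3 or BdP PBS 2 or 3.

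**Figure D2:**
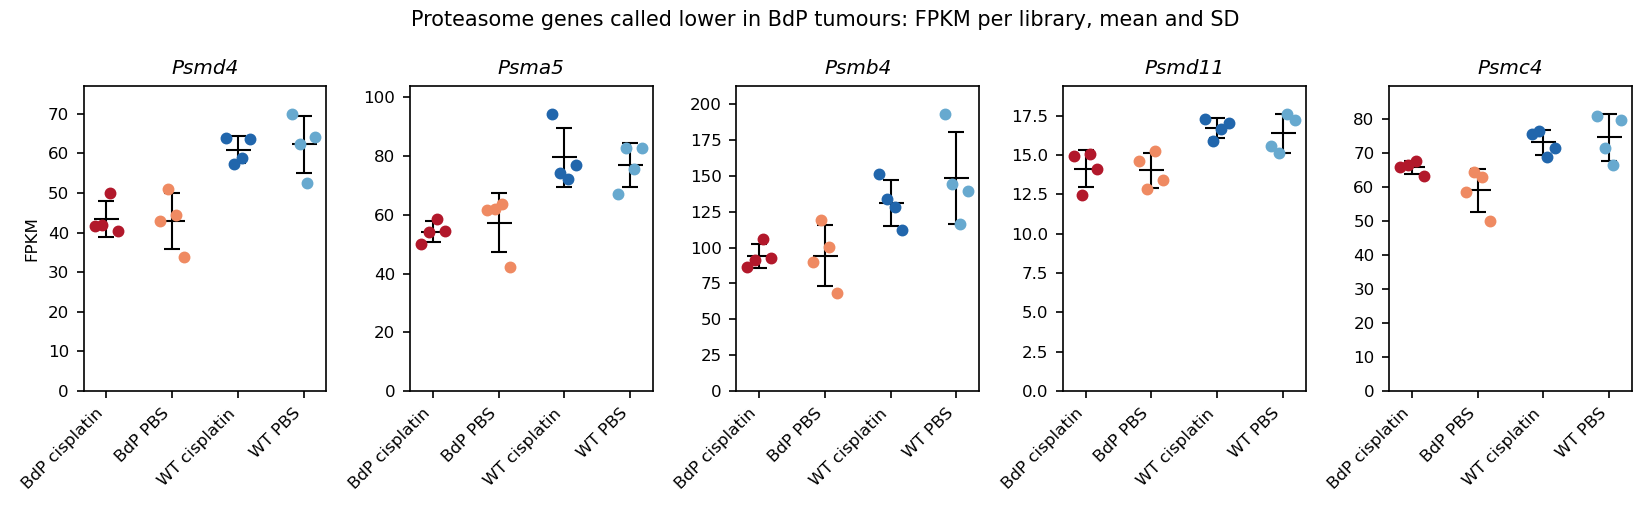
FPKM (y axis, starting at 0) of the 5 proteasome genes called lower in BdP tumours, by group; points are libraries, bars mean and SD (n = 4). For Psmd4 and Psma5 every BdP point lies below every WT point, and for Psmb4, Psmd11 and Psmc4 the genotypes overlap.

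The calls for Psmd4, Psma5 and Psmb4 held without each of the 16 libraries in turn and without the 3 mitochondria-rich WT libraries, where their log2 fold changes were -0.47, -0.56 and -0.56. Without those 3 libraries 4 members were called lower, these and Psmd1 (the base scaffold Rpn2), and Psmd11 and Psmc4 were not, with adjusted p of 0.0932 and 0.0796 in limma. Of all 12319 genes, 313 were called lower without those libraries, against 381 with all 16. With values as TPM, where every library has the same total, 0 members were called, where 508 of all genes were called higher and 24 lower. The median over all genes moved to 0.48. Relative to that shift, the members' median was -0.12. The median sums of the 12 leukocyte markers were 324 FPKM in BdP cisplatin, 346 in BdP PBS, 74.7 in WT cisplatin and 159 in WT PBS, and their part in these differences was not tested.

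The 3 called genes with the largest falls, Psmd4, Psma5 and Psmb4, are the 3 tested members on chromosome 3, a feature noticed after their values were seen. The other genes of chromosome 3 were lower in BdP tumours as well. Of its 593 other tested genes, 442 were lower in BdP, their median log2 fold change was -0.17, and 91 (15.3%) were called lower, against 2.44% of the 11683 other genes elsewhere, whose median was 0.014. Without the 3 mitochondria-rich libraries the share was 14.3% on chromosome 3, against 1.92% elsewhere. Among genes that start within 5 Mb of Psmb4, 81 of 106 were lower, 19 were called lower and 6 fell at least as far as Psmb4. Within 5 Mb of Psmd4, which overlaps that window, 78 of 102 were lower, 19 were called lower and 9 fell at least as far as Psmd4. Within 5 Mb of Psma5, 49 of 62 were lower, 12 were called lower and 6 fell at least as far as Psma5. The 3 members on chromosome 3 thus lay among neighbours that were mostly lower in BdP tumours, and below most of them.

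Over the 40 members off chromosome 3 the median was -0.20, and 2 of 40 were called lower, Psmd11 and Psmc4, where 2.44% of the other genes elsewhere were. These are the 2 calls that stood at the threshold and ended in most fits without 1 library. Set against the median of the other genes on its own chromosome, 41 of 43 members were lower in BdP tumours, with a median difference of -0.20. The difference was -0.34 for Psmd4, -0.32 for Psma5 and -0.39 for Psmb4. Around Psmc4 and Psmd11, the other genes within 5 Mb had medians of 0.02 and -0.002. On chromosome 18, where 57 of 304 other genes were called higher and their median was 0.22, the core assembly chaperone Psmg2 had a log2 fold change of 0.13 ± 0.12 (SE), with an adjusted p of 0.545 in limma. What makes genes of a chromosome move together was not tested.

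**Figure D3:**
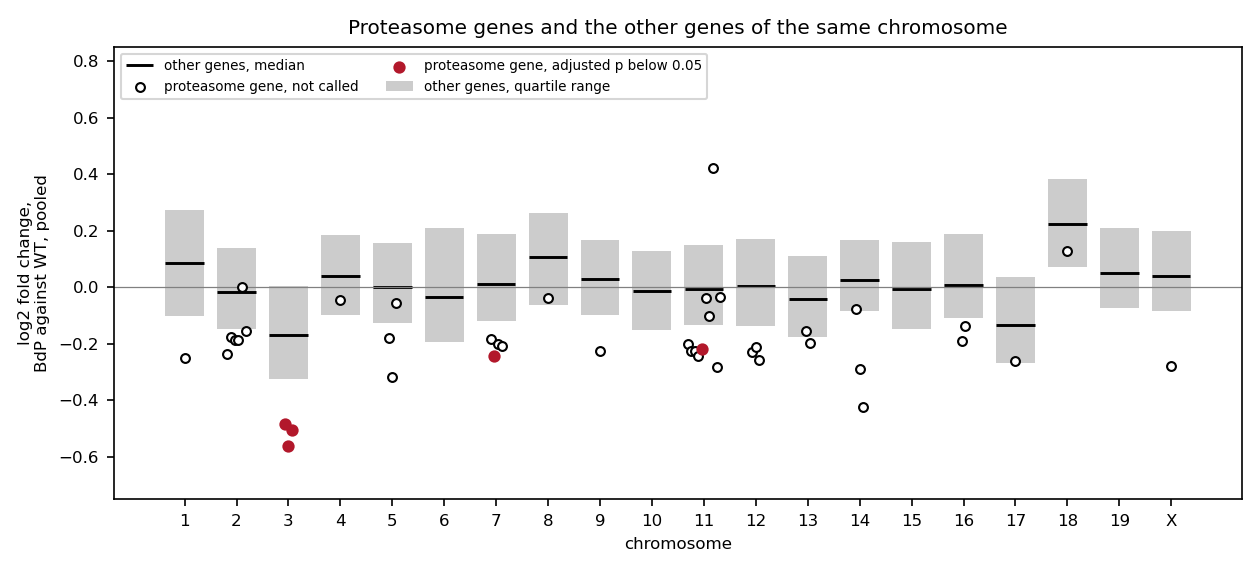
Log2 fold change of BdP against WT, pooled over treatments (y axis), by chromosome (x axis); grey bars span the quartiles and black lines mark the median of the other genes, and points are proteasome genes. The 3 members on chromosome 3 lie lowest, on a chromosome whose median is -0.17, and most members elsewhere lie below their chromosome's median.

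By role, no group had more than 1 called gene, and 3 of the 5 called genes are those on chromosome 3. All 7 alpha ring genes were lower in BdP (median -0.23, 1 called), as were all 4 beta ring genes without activity (median -0.23, 1 called) and the 3 catalytic genes (median -0.18, 0 called). All 6 ATPase genes were lower (median -0.24, 1 called), and so were the 3 other base genes (median -0.25, 1 called) and the 8 lid genes (median -0.19, 1 called). Of the assembly chaperones, 2 of 3 for the regulatory particle (median -0.28) and 3 of 4 for the core (median -0.10) were lower, with 0 called in limma. Psme3 had a log2 fold change of -0.28 ± 0.08 (SE), with an adjusted p of 0.0582 in limma, and the lid gene Psmd6 (Rpn7) had -0.42 ± 0.15, with an adjusted p of 0.0968. Psmd6 had 63.1 FPKM in WT PBS 1 and at most 35.1 FPKM in any other library. The deubiquitinase Psmd14 had a pooled log2 fold change of -0.19, the activator Psme4 of -0.04 and the inhibitor Psmf1 of -0.16, none of them called.

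**Figure D4:**
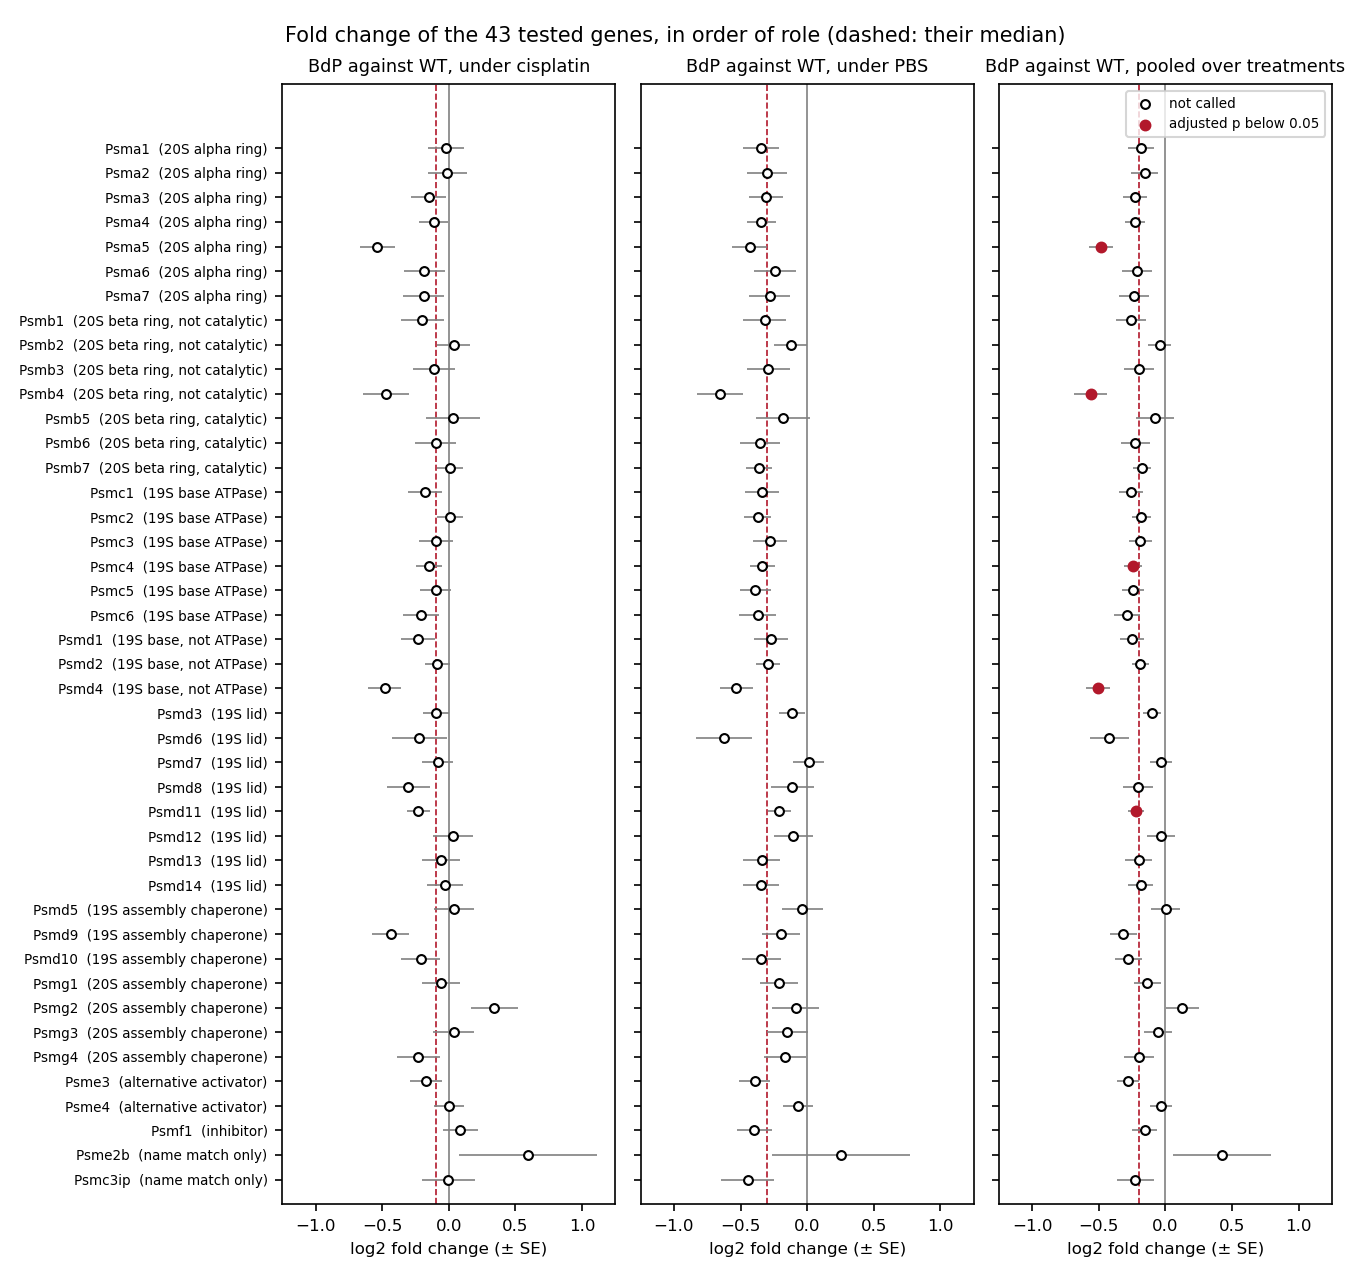
Log2 fold change with SE (x axis) of the 43 tested genes (rows, in order of role) for BdP against WT under cisplatin, under PBS and pooled; filled points are called and the dashed line is the median over the 43. Points lie further left under PBS than under cisplatin, and the called genes appear in the pooled panel only.

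Under PBS, with 4 libraries a group, the members' median was further below 0 and no member passed the threshold. The median over the 43 genes was -0.30, with 41 of 43 lower in BdP, against 0.01 over all genes. In limma 0 members were called, where 0.990% of all genes were called. At an unadjusted p under 0.05 there were 23 of 43, against 19.3% of all genes, and all 23 were lower in BdP, where 9.59% of all genes were. Voom called 0 members, where it called 71 of all genes lower and 52 higher. The smallest p belonged to Psmd4, with a log2 fold change of -0.53 ± 0.12 (SE) and an adjusted p of 0.0544 in limma, then Psmb4 with -0.65 ± 0.17 and 0.0893, and Psmc2 with -0.37 ± 0.10 and 0.0951. All BdP PBS libraries lay below all WT PBS libraries for 7 members, Psma5, Psmb7, Psmc2, Psmc4, Psmd2, Psmd4 and Psmf1, a pattern that 4.32% of all genes showed. Without WT PBS 3, 4 members were called lower (Psmb4, Psmc4, Psmd4 and Psmd6), and without WT PBS 4 there was 1. Of all genes, 209 were called lower without WT PBS 3 and 40 without WT PBS 4, against 71 with all libraries.

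The catalytic gene Psmb7 had 21.9, 29.7, 27.5 and 22.2 FPKM in BdP PBS, against 31.1, 34.1, 30.1 and 34.9 FPKM in WT PBS. Its highest BdP value lay just below its lowest WT value. The log2 fold change under PBS was -0.36 ± 0.10 (SE), with an adjusted p of 0.0962 in limma. The inhibitor gene Psmf1 had 3.43, 5.82, 5.14 and 5.16 FPKM in BdP PBS, against 6.68, 6.33, 6.76 and 6.86 FPKM in WT PBS. The log2 fold change was -0.40 ± 0.13 (SE), with an adjusted p of 0.146 in limma. Psmb5 averaged 96.5 ± 21.7 FPKM in BdP PBS and 108 ± 17.3 in WT PBS, and Psmb6 73.1 ± 15.7 in BdP PBS and 92.6 ± 14.1 in WT PBS (SD, n = 4 each), with ranges that overlapped for both.

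Under cisplatin the members' median was nearer 0. The median over the 43 genes was -0.10, with 33 of 43 lower in BdP, against 0.007 over all genes, and it was -0.18 without the 3 mitochondria-rich libraries, where that under PBS was -0.26. In limma 0 members were called, where 1.07% of all genes were called. Voom called 1 lower, Psma5, where it called 145 of all genes lower. At an unadjusted p under 0.05 there were 5 of 43, against 13.8% of all genes, and all 5 were lower, where 6.83% of all genes were. The smallest p belonged to Psma5 with a log2 fold change of -0.54 ± 0.13 (SE) and an adjusted p of 0.0684, then Psmd4 with -0.48 ± 0.12 and 0.0814, and Psmd9 with -0.44 ± 0.14 and 0.184, all in limma. Psmd9 encodes p27, a chaperone of the ATPase ring, and had 3.77, 4.16, 3.64 and 3.48 FPKM in BdP cisplatin, against 6.42, 5.10, 5.91 and 4.49 FPKM in WT cisplatin. All BdP cisplatin libraries lay below all WT cisplatin libraries for 6 members, Psma5, Psmb4, Psmc4, Psmd4, Psmd9 and Psmd11, where 6.60% of all genes showed that pattern. Leaving out WT PBS 1, which enters through the shared spread, gave 2 calls, Psma5 and Psmd4. Without WT PBS 1, 192 of all genes were called lower under cisplatin, against 89 with all libraries. The 2 members with the smallest p thus lay on chromosome 3 under PBS and under cisplatin. Under cisplatin the catalytic genes had log2 fold changes of 0.03 for Psmb5, -0.10 for Psmb6 and 0.007 for Psmb7, none of them called.

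Cisplatin changed no member past the threshold in either genotype. In BdP tumours the median over the 43 genes was 0.06, with 36 of 43 higher under cisplatin, and the direction turned when BdP PBS 4 was left out, to a median of -0.01. The median became 0.13 when BdP PBS 2 was left out, 0.10 when BdP PBS 3 was, 0.02 when BdP cisplatin 3 was, and 0.12 with TPM. Limma called 0 members, where 0% of all genes were called. At an unadjusted p under 0.05 there were 3 of 43, against 4.40% of all genes, and voom called 0. These 3 were Psmb7, with 30.2 to 32.7 FPKM in BdP cisplatin and 21.9 to 29.7 in BdP PBS (log2 fold change 0.33 ± 0.10, SE), Psmf1, with 5.52 to 8.03 FPKM in BdP cisplatin and 3.43 to 5.82 in BdP PBS (0.43 ± 0.13), and the base scaffold gene Psmd2 (0.20 ± 0.09). Each had an adjusted p of 1.00 in limma.

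In WT tumours the median was -0.08, with 33 of 43 lower under cisplatin, and limma called 0 members, where 0.00812% of all genes were called. At an unadjusted p under 0.05 there was 1 of 43, Psmc3ip, against 7.74% of all genes, and voom called 0. Among the subunits the smallest p belonged to Psmc2, with 28.8, 28.6, 24.2 and 26.9 FPKM in WT cisplatin, against 34.9, 28.8, 29.2 and 33.6 FPKM in WT PBS, and a log2 fold change of -0.21 ± 0.10 (SE, adjusted p of 0.641 in limma). Psma4 had -0.21 ± 0.11 (adjusted p of 0.648 in limma). The median in WT tumours was -0.003 without the 3 mitochondria-rich libraries, 0.0003 after quantile normalisation, 0.03 after scaling to the protein-coding sum and 0.76 with TPM. Leaving out 1 library at a time, it was -0.05 without WT PBS 1, WT PBS 4 or WT cisplatin 4 and -0.14 or -0.15 without WT PBS 3 or WT cisplatin 1.

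With genotypes pooled, the median of cisplatin against PBS was -0.01, limma called 0 members, where 0% of all genes were called, 1 of 43 had an unadjusted p under 0.05, against 6.34% of all genes, and voom called 0. That gene was Psme4, whose cap PA200 acts in the nucleus, with 13.0 ± 0.676 FPKM in BdP cisplatin, 10.9 ± 0.551 in BdP PBS, 13.0 ± 0.431 in WT cisplatin and 11.6 ± 2.40 in WT PBS (SD, n = 4 each), a log2 fold change of 0.20 ± 0.08 (SE) and an adjusted p of 0.726 in limma. The interaction, which is the change with cisplatin in BdP tumours less the change in WT tumours, was above 0 for 37 of 43 genes, with a median of 0.18 against 0.007 over all genes. Limma called 0 members, where 0% of all genes were called, 3 of 43 had an unadjusted p under 0.05 (Psmc2, Psmb7 and Psmf1), against 5.61% of all genes, and voom called 0. Their interaction log2 values were 0.38 ± 0.14, 0.37 ± 0.14 and 0.48 ± 0.19 (SE), each with an adjusted p of 0.835 in limma. A difference in response between the genotypes was therefore not detectable for any single member. The median of the interaction was 0.08 without the 3 mitochondria-rich libraries, 0.06 after scaling to the protein-coding sum and -0.65 with TPM, where the median over all genes also was -0.65.

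Each catalytic position can hold a constitutive or an interferon-induced subunit, so their ratio was taken within each library. The log2 ratio of Psmb8 over Psmb5 was -2.75, -2.99, -1.68 and -2.65 in BdP cisplatin, against -5.78, -3.73, -3.40 and -4.15 in WT cisplatin. All BdP libraries were higher. The mean difference was 1.75, with an exact two-sided permutation p of 0.0286, the smallest that 4 against 4 allows, and 0.114 after Benjamini-Hochberg adjustment over the 12 tests of ratios. Psmb9 over Psmb6 differed by 1.85 and Psmb10 over Psmb7 by 1.08 under cisplatin, also without overlap and with the same exact and adjusted p. The 3 ratios come from the same libraries and are not 3 independent results. Within-group SDs on the log2(FPKM + 1) scale were 1.44, 1.33 and 0.72 for Psmb8, Psmb9 and Psmb10. They were 0.30, 0.22 and 0.12 for Psmb5, Psmb6 and Psmb7. Under PBS the differences of BdP minus WT were 0.84, 0.96 and 0.23, with exact permutation p of 0.600, 0.543 and 0.743, and the ranges overlapped. Under cisplatin the log2 fold changes of the interferon-induced subunits were 1.78 ± 0.92 for Psmb8, 1.75 ± 0.85 for Psmb9 and 1.08 ± 0.47 for Psmb10 (SE), with adjusted p of 0.412, 0.378 and 0.324 in limma. Those of the constitutive subunits they replace, given above, were close to 0.

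**Figure D5:**
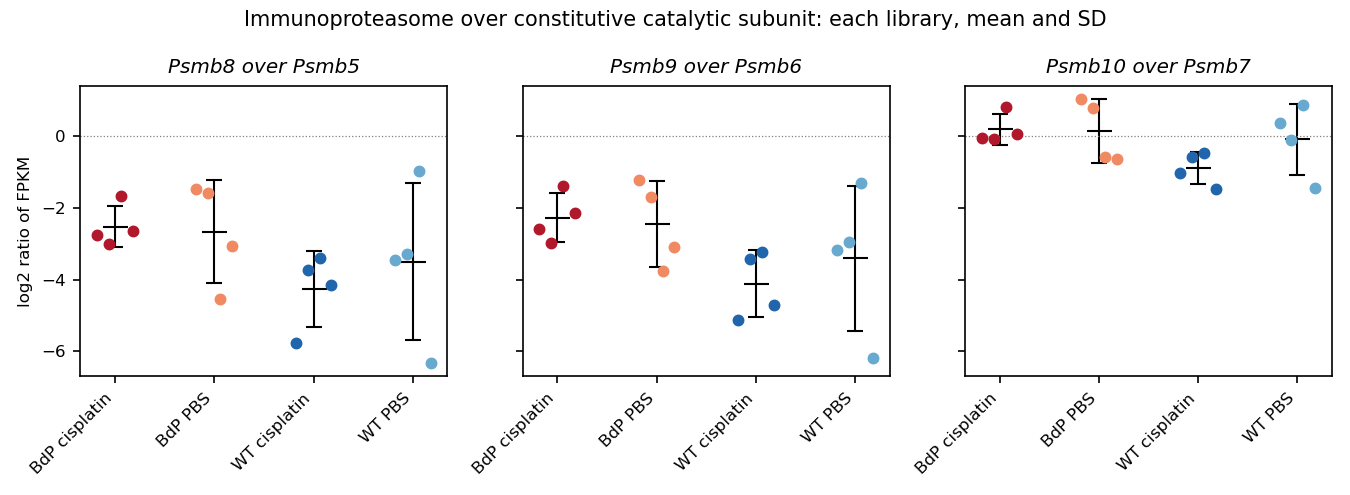
Log2 ratio of the FPKM of each interferon-induced catalytic subunit to the constitutive subunit it replaces (y axis), by group; points are libraries, bars mean and SD (n = 4), and the dotted line marks equal levels. BdP cisplatin lies above WT cisplatin in all 3 panels, both PBS groups spread widely, and only Psmb10 over Psmb7 is near equal levels.

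A sum over 5 genes and a sum over 41 do not compare levels per gene, so the 5 interferon-induced genes are given alone. Their summed level was 106 to 236 FPKM in BdP cisplatin, 72.8 to 232 in BdP PBS, 57.2 to 89.2 in WT cisplatin and 42.8 to 235 in WT PBS, and limma called 0 of 5 in any of the 7 comparisons. At an unadjusted p under 0.05 there was 1, Psmb10 under cisplatin, and voom called 0 of 5 in any of them. All 5 had pooled log2 fold changes above 0, with a median of 0.48, where the constitutive genes had a median below 0. The summed level of 8 interferon gamma response genes was 796 to 2314 FPKM in BdP cisplatin, 799 to 2103 in BdP PBS, 369 to 889 in WT cisplatin and 202 to 2358 in WT PBS, and its part in the ratios was not tested.

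Of 34 genes that regulate, assemble or feed the proteasome, 33 were tested, and their median was near that of all genes. In the pooled comparison 15 of 33 were lower in BdP, with a median of 0.01 and 1 called lower, a share near the 3.09% of all genes called lower. The gene called was Hspb1, a small heat shock protein, with 0.94, 0.59, 3.11 and 1.33 FPKM in BdP cisplatin and 4.20, 7.94, 3.77 and 3.01 in BdP PBS, against 9.54, 4.47, 36.5 and 29.3 FPKM in WT cisplatin and 18.4, 4.68, 11.2 and 5.07 in WT PBS. Its pooled log2 fold change was -1.79 ± 0.39 (SE), with an adjusted p of 0.0173 in limma, and under cisplatin -2.78 ± 0.56 with 0.0267. The next smallest p belonged to Nploc4, a cofactor of the unfoldase Vcp (-0.24 ± 0.07, adjusted p of 0.0614), and Adrm1, the ubiquitin receptor Rpn13 (-0.21 ± 0.07, adjusted p of 0.0871), neither called in limma. Among 75 cytosolic ribosomal protein genes, another set of abundant housekeeping genes, the pooled median was -0.12 with 65 lower in BdP, and under PBS it was -0.18 with 68 lower. In the pooled comparison limma called 0 of the 75, with 1.0 at an unadjusted p under 0.05, and voom called 0.0. The test of a difference between that set and the proteasome genes was not run.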

How the data were processed

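RNA sequencing of 16 tumours was deposited as 1 table of 54532 genes. Per the submitters' processing notes, base calling used CASAVA, alignment HISAT2 2.0.5 to GRCm38 and counting featureCounts 1.5.0-p3. The authors deposited FPKM per gene. FPKM times gene length gave whole reads (within 0.1 read), with a library scale that equals a median-of-ratios size factor, so columns do not share 1 total and FPKM was scaled between libraries before deposit. Symbols that a spreadsheet had turned into dates (27) were restored by gene ID from the GENCODE M21 annotation.

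Here limma 3.58.1 in R 4.3.3 was run on log2(FPKM + 1), a pseudocount of 1 that understates changes of low genes, over the 12319 genes that reached 1 FPKM in 4 or more libraries. All 16 libraries entered 1 fit of group means with a trended variance prior, and 7 contrasts were adjusted over all genes (Benjamini-Hochberg, 0.05). Ratios were tested by exact permutation (scipy 1.17.1). Members and gene lists were chosen with earlier results of these data known. Named genes are those called in a contrast or, where fewer than 3 were called, the 3 with the smallest p, with the catalytic, receptor, deubiquitinase, activator and inhibitor genes, the extremes of each role and the called or smallest-p related genes. The chromosome and neighbour comparisons were added after values were seen, and Psmd1, Psmd6 and Psmg2 were named after theirs. Alternatives were other pseudocounts, filters and scalings, voom on recovered reads, array weights, 2 groups only, a replicate block, and fits without each library or without the 3 mitochondria-rich ones. Promoters are RefSeq, GRCm38.p6. Depth was 10051843 to 27055771 assigned reads a library (median 21119709).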

Additional observations from a re-analysis of the deposited data

Results flagged for a closer look

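In 13 of 196 groups of 4 screened, 1 library stood apart from the other replicates by a gap test (Dixon, 95%), where chance gives about 1 in 20. BdP cisplatin 3 was the highest of its group for Psma1 (43.1 FPKM), Psmb5 (117 FPKM), Psmd4 (50.0 FPKM), Psmb8 (35.9 FPKM) and Psme1 (81.5 FPKM). BdP PBS 4 was the lowest of its group for Psma5 (42.4 FPKM) and Pros1 (1.24 FPKM). WT PBS 1, the library with 76.9% mitochondrial reads, was the highest of its group for the lid gene Psmd8 (170.0 FPKM) and the chaperone gene Psmd10 (24.4 FPKM). The other 4 were the ATPase gene Psmc3, highest in BdP cisplatin 2 at 74.6 FPKM, Psmd10, lowest in BdP cisplatin 1 at 13.0 FPKM, Psme3, highest in BdP PBS 2 at 64.3 FPKM, and Psme2b, highest in WT cisplatin 3 at 42.6 FPKM.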

How the results depend on the processing

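The calls of Psmd4, Psma5 and Psmb4 in the pooled genotype comparison held in 25 of 26 alternatives, all but TPM, where their log2 fold changes were 0.055, 0.079 and 0.011 and those of Psmd11 and Psmc4 were 0.31 and 0.32. With TPM the members' medians were 0.36 (pooled genotype), 0.65 (genotype under PBS), 0.052 (genotype under cisplatin), 0.12 (cisplatin in BdP), 0.76 (cisplatin in WT), 0.43 (cisplatin pooled) and -0.65 (interaction). The median over all genes moved by 0.48, 0.82 and 0.15 in the 3 genotype comparisons, so relative to it the members were lower by -0.12, -0.16 and -0.10. After scaling to the protein-coding sum the median was 0.030 for cisplatin in WT and 0.062 for the interaction, and after quantile normalisation that for cisplatin in WT was 0.0003. Members called lower in the pooled genotype comparison numbered 3 with no filter, 3 after quantile normalisation, 0 with TPM and 8 with array weights. Of all genes, 272 of 29405 were called lower with no filter, 481 of 12319 after quantile normalisation and 24 of 12319 with TPM. Under PBS there were 1 after quantile normalisation and 4 with array weights. Of all genes, 88 and 98 were called lower in these settings, against 71 in the fit used above. Under cisplatin there was 1 after protein-coding scaling, quantile normalisation or voom, 2 with the 2 groups only and 4 with array weights. Of all genes, 73, 104, 145, 152 and 524 were called lower in these settings, in that order, against 89 in the fit used above. Over all genes, array weights called 715 higher and 775 lower in the pooled genotype comparison, against 341 and 381 with equal weights. Without 1 library at a time, the calls numbered 3 to 10 (pooled, with 10 without WT PBS 3), 0 to 4 (under PBS) and 0 to 2 (under cisplatin). Calls over all genes moved too. Without WT PBS 3, 693 of all genes were called lower in the pooled comparison, against 381 with all 16 libraries. Under PBS 209 of all genes were called lower without WT PBS 3, against 71 with all 16. Under cisplatin 192 were called lower without WT PBS 1, against 89 with all 16. Without 1 library at a time the medians were -0.23 to -0.16 (pooled), -0.37 to -0.19 (PBS), -0.14 to -0.06 (cisplatin), -0.01 to 0.13 (cisplatin in BdP), -0.15 to -0.05 (cisplatin in WT), -0.06 to 0.01 (cisplatin pooled) and 0.09 to 0.24 (interaction). The cause of these shifts was not tested. With the replicate number as a block 4 members were called lower in the pooled genotype comparison, since Psmc4 had an adjusted p of 0.0785 in limma, and no other call changed. That block fit called 276 of all genes lower. Same-number correlations of deviations ran between -0.61 and 0.42 (median 0.02), and other-number ones between -0.54 and 0.57 (median -0.008). With ranges this wide they cannot tell whether the numbers mark a shared experiment. WT PBS 1 had 12093 reads in member genes, against 62198 to 161980 in the other libraries.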
